A study of Mus musculus with 2 samples.

Results

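Collagens, laminins and the other structural proteins of the extracellular matrix were followed by single-cell RNA sequencing in the lungs of BALB/c mice, as a set of 42 genes of the 32286 features in the deposited count tables. The genes were taken by symbol, and all 42 symbols were found. Both groups were female mice 9 to 10 weeks old that received intravenous injections over 3 weeks. One group received control media (CM) and the other tumor conditioned media (TCM) derived from 4T1 mammary tumors. Each group was 1 library, and the number of mice behind a library is not given in the sources used here. The data answer which stromal, endothelial or epithelial cells carry the messages of each matrix protein, and how the messages in each cell class of the TCM library compare with those of the CM library.

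The matrix of the lung falls into 2 broad forms. The interstitial matrix holds fibrillar collagens, elastic fibres and proteoglycans, and gives airways, vessels and alveolar walls their strength and recoil. The basement membrane is a thin sheet of type IV collagen and laminin networks joined by nidogens and perlecan, and in the alveolus the sheets of the epithelium and of the capillary fuse into the barrier across which gas is exchanged. Fibroblasts, pericytes and smooth muscle cells are the classic sources of interstitial matrix, whereas basement membrane is built by the cells on both of its sides.

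The CM library held 31944151 unique molecular identifiers (UMIs, each 1 captured RNA molecule) and the TCM library 36648719. After droplets with under 500 UMIs, under 200 genes or over 10% mitochondrial UMIs were left out, 7988 CM and 7707 TCM cells remained, with medians of 2085 and 2346 UMIs a cell. Cells were assigned to classes by marker genes that included none of the 42, and every class carries the suffix "-like". Of these cells, 5950 CM (74.5%) and 6181 TCM (80.2%) passed a gate. The comparison took in 12 mesenchymal, endothelial and epithelial classes, each with at least 40 cells in both libraries. The largest were alveolar fibroblast-like cells, 654 in CM and 462 in TCM, and general capillary-like cells, 595 and 693. The smallest were ductal myofibroblast-like cells, 64 and 40, and mesothelial-like cells, 44 and 56. Ciliated-like cells, 55 and 45, also reached 40 cells in both libraries but were left out of the comparison and its counts. In that class 1 of the 42 genes reached 100 UMIs, and it was at least 1.5-fold higher in TCM. So were 193 of the 1576 features tested there. Neutrophil-like cells numbered 215 in CM and 1334 in TCM, and monocyte-like cells 145 and 241.

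A level below is the summed UMIs of a gene in a class per 100000 UMIs of that class (CP100k), and it is compared across classes or libraries for 1 gene at a time, since messages differ in length and capture. With 1 library per group there is no replicate and no test. Intervals are 95% intervals of the counts and cover counting error only, not the spread between mice. A gene was counted as higher or lower in a class when its CP100k differed by at least 1.5-fold between the libraries and it had at least 100 UMIs there over both.

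Most of the 42 genes peaked in mesenchymal cells. In CM the class with the highest level was mesenchymal for 35 genes, epithelial for 6 and endothelial for 1. In TCM it was mesenchymal for 33, epithelial for 6, endothelial for 1 and immune for 2. Adventitial fibroblast-like cells, which ensheath airways and larger vessels, led for 14 genes in CM and 13 in TCM, pericyte-like cells for 9 and 8, and alveolar type 1 (AT1)-like cells for 5 in each. The same class led in both libraries for 32 genes, and for 22 of them its interval lay clear of the class ranked next in both.

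**Figure D1:**
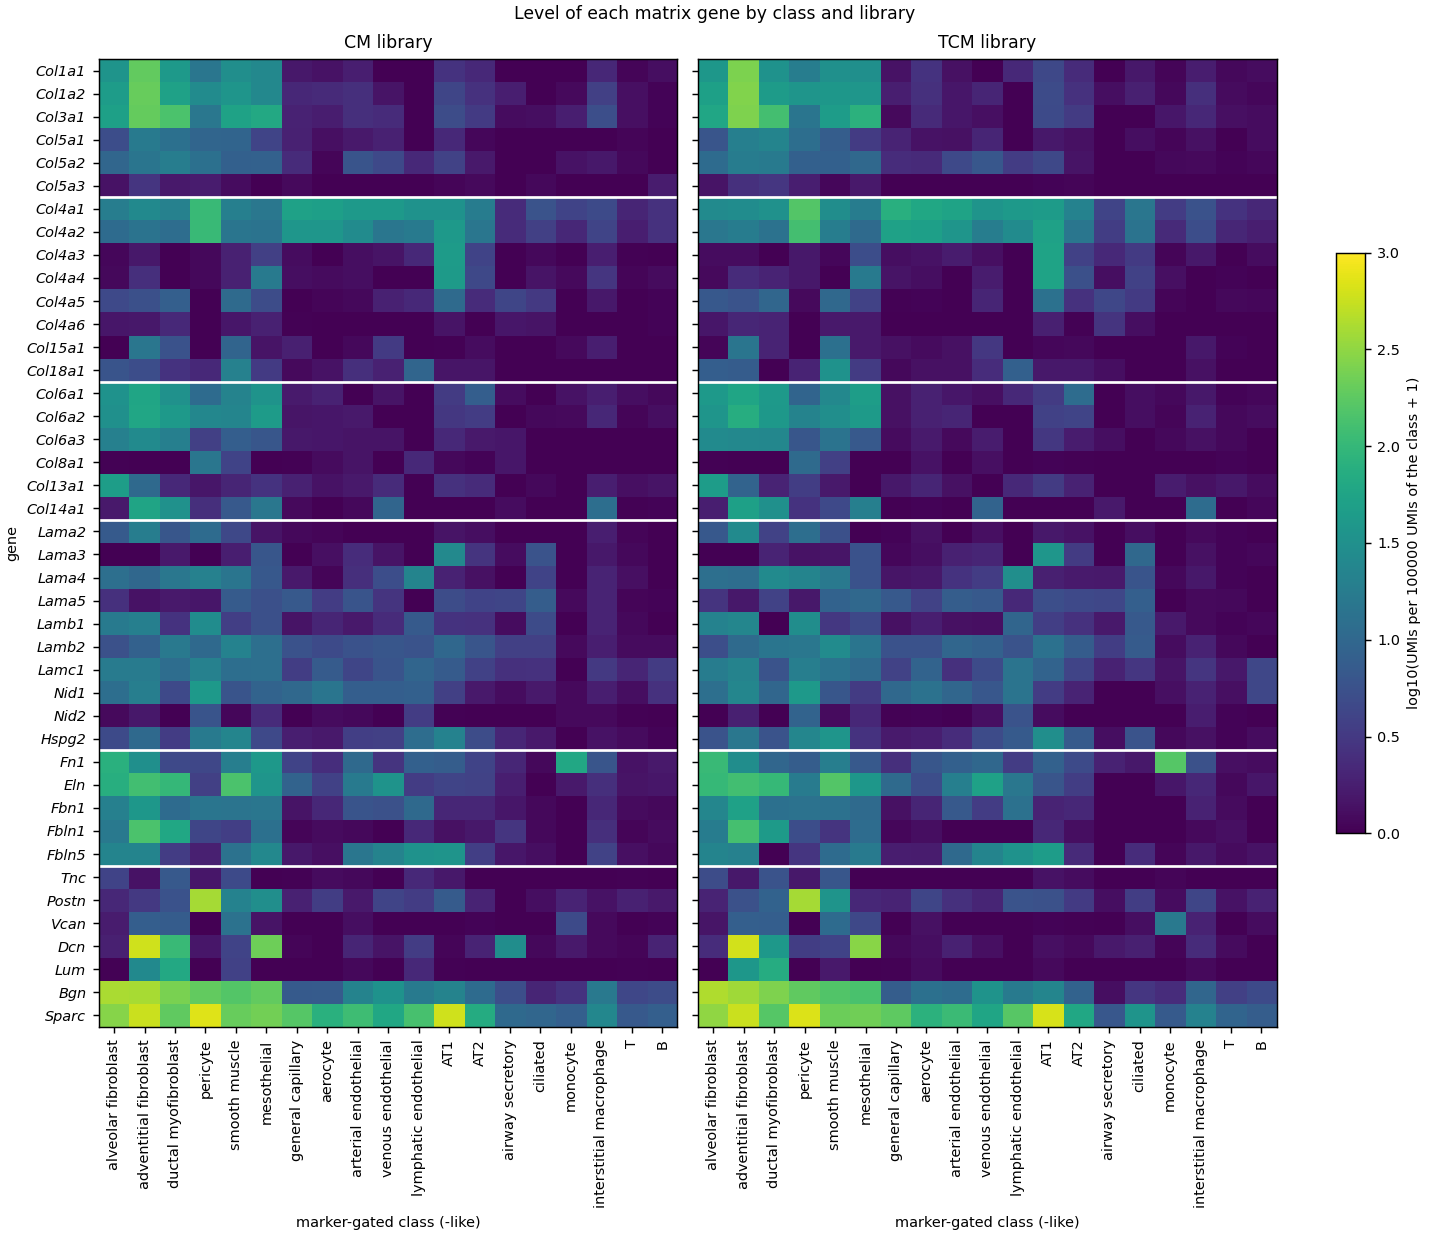
Heat maps of the level of each of the 42 matrix genes (vertical axis, in 6 role groups set apart by white lines) in each marker-gated class (horizontal axis), with the CM library on the left and the TCM library on the right and the colour giving log10(CP100k + 1), brighter for higher. Type I and III collagens are brightest in adventitial fibroblast-like cells, Postn in pericyte-like cells, and Col4a3 and Col4a4 in AT1-like cells.

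Type I and type III collagen, the fibrils that bear tension, were adventitial. Col1a1 and Col1a2 encode the chains of type I collagen. Col1a1 stood at 187 CP100k in adventitial fibroblast-like cells of CM and 257 of TCM, against 35.1 and 37.3 in alveolar fibroblast-like cells. Col1a2 ran in parallel, 198 and 266 against 45 and 49.1. Col3a1, the type III chain, was at 194 and 263 in adventitial fibroblast-like cells. In the 3 genes the adventitial level was therefore higher in TCM by a log2 ratio of 0.46, 0.43 and 0.44, intervals 0.33 to 0.59, 0.30 to 0.56 and 0.31 to 0.57, which is short of 1.5-fold. Mesenchymal cells held 95.5% of the gated Col1a1 UMIs in CM and 93.5% in TCM. By number of UMIs, alveolar fibroblast-like cells contributed the most Col1a2, 38.3% and 35.9%, at a lower level in more cells. The same held for Col3a1, 36.6% and 38.4%.

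Outside the adventitial class 2 fibrillar collagen ratios passed 1.5-fold, Col1a2 in mesothelial-like and Col5a2 in pericyte-like cells. Col3a1 was at 142 and 125 CP100k in ductal myofibroblast-like cells, the contractile cells at the alveolar entrance rings, and at 53 and 44.5 in smooth muscle-like cells (log2 ratio -0.25, interval -0.46 to -0.05). Col1a2 was higher in mesothelial-like cells, 23.9 against 36.4 (0.61, 0.06 to 1.16). There 10 cells carried 90.7% of its UMIs in CM and 88.7% in TCM, and the ratio without them was 1.19 on 5 and 7 UMIs. Type V collagen, which sets the width of type I fibrils, was scarce. Col5a1 was highest in adventitial fibroblast-like cells of CM (16.3) and in ductal myofibroblast-like cells of TCM (21.4). Col5a2 was lower in pericyte-like cells of TCM, 11.8 against 7.35 (-0.68, -1.29 to -0.09), on 69 and 38 UMIs. Col5a3 did not pass 1.94 CP100k in any class of either library.

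Type IV collagen, the network of every basement membrane, is encoded by 6 genes that lie in 3 head-to-head pairs. The genes of a pair are read on opposite strands from a shared stretch of promoter. In the mouse assembly GRCm38.p6 the Col4a1 start (position 11312826, minus strand) and the Col4a2 start (11312805, plus strand) are 21 bases apart on chromosome 8. Those of Col4a3 (82586921, plus strand) and Col4a4 (82586849, minus strand) are 72 bases apart on chromosome 1, and those of Col4a5 and Col4a6 are 1309 bases apart on chromosome X. The RefSeq promoter sequence around and between the paired starts is shown for the pairs whose 2 genes were high in the same cell classes, on the plus strand, with a GC box in capitals.
Col4a1 and Col4a2, chr8:11312801-11312830: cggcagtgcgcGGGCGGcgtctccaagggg
Col4a3 and Col4a4, chr1:82586850-82586920: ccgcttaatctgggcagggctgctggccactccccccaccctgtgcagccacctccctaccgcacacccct
The GC box was searched as GGGCGG on both strands and is present in the first stretch and not in the second. In windows from 250 bases before to 50 bases after a start, it occurred in 23 of the 36 windows (63.9%) found for 30 of the 42 genes and in 35.7% of 32851 windows of all genes. CCAAT occurred in 30.6% and 37.4%, and TATAAA in 13.9% and 13.6%. A match is a description of letters, not a mapped site.

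The members of the first 2 pairs shared their classes, and the pairs differed from each other. Col4a1 and Col4a2 peaked in pericyte-like cells, the mural cells that share a basement membrane with the capillary, at 108 and 107 CP100k in CM. General capillary-like cells followed for Col4a1 (50.5) and AT1-like cells for Col4a2 (41.4). Col4a3 and Col4a4, which together with Col4a5 form the network typical of the alveolar basement membrane, were AT1 genes. AT1-like cells, the flat epithelium of the gas exchange surface, held 91.0% of the gated Col4a3 UMIs in CM and 86.1% in TCM, and 85.5% and 82.4% of those of Col4a4. Mesothelial-like cells, the outer lining of the lung, held Col4a4 at 16.4 in both libraries. The third pair did not share a class at a level that could be read. Col4a5 was close to even in AT1-like (9.83) and smooth muscle-like (9.79) cells of CM, and Col4a6 reached at most 1.85, with 41 gated UMIs in CM and 43 in TCM.

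Col4a1 had a log2 ratio above 0 in 9 of the 10 classes where it was measured, with an interval clear of 0 in 8. Col4a2 had one in 8 of 9 classes, clear of 0 in 7. Over all features 50.2% of pairs were above 0. In general capillary-like cells Col4a1 was at 50.5 CP100k on 1024 UMIs in CM (interval 47.5 to 53.7) and at 77.8 on 2015 UMIs in TCM (74.5 to 81.3), giving a log2 ratio of 0.62 (0.51 to 0.73). In smooth muscle-like cells it was at 18.7 and 28.8 (0.62, 0.32 to 0.93). These were the only 2 classes where Col4a1 was at least 1.5-fold higher. It fell just short in alveolar fibroblast-like cells, 17.6 and 26.2 (0.57), and pericyte-like cells, 108 and 156 (0.54). The ratio was smaller in arterial endothelial-like (0.44), AT1-like (0.38), aerocyte-like (0.34), AT2-like (0.24) and adventitial fibroblast-like cells (0.11). The exception was the venous endothelial-like class, 40.2 and 34.4 (-0.22, -0.65 to 0.20).

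Cells thinned to 1000 UMIs each gave the same direction in the capillary. A Col4a1 UMI was found in 39.5% of thinned general capillary-like cells of CM and 50.7% of TCM (67.7% and 79.4% unthinned). In T-like cells, which should lack it, the thinned share was 0.542% and 1.66%, and the unthinned share 2.28% and 3.80%. The median depths were 2707 and 3178 UMIs in general capillary-like cells and 2313 and 2264 in T-like cells. In smooth muscle-like cells the thinned shares were 15.4% and 16.8% with overlapping intervals, 10.1% to 22% and 11.1% to 23.9%, so the difference was not detectable there at this depth. Col4a2 was higher by 0.52 in alveolar fibroblast-like cells, 0.51 in general capillary-like, 0.41 in aerocyte-like and 0.40 in arterial endothelial-like cells, and by -0.01 in AT2-like cells. The endothelial share of gated UMIs was 42.5% in CM and 52.1% in TCM for Col4a1, and 36.6% and 48.8% for Col4a2. Part of such a share is the number of cells, since general capillary-like cells were more numerous in TCM.

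**Figure D2:**
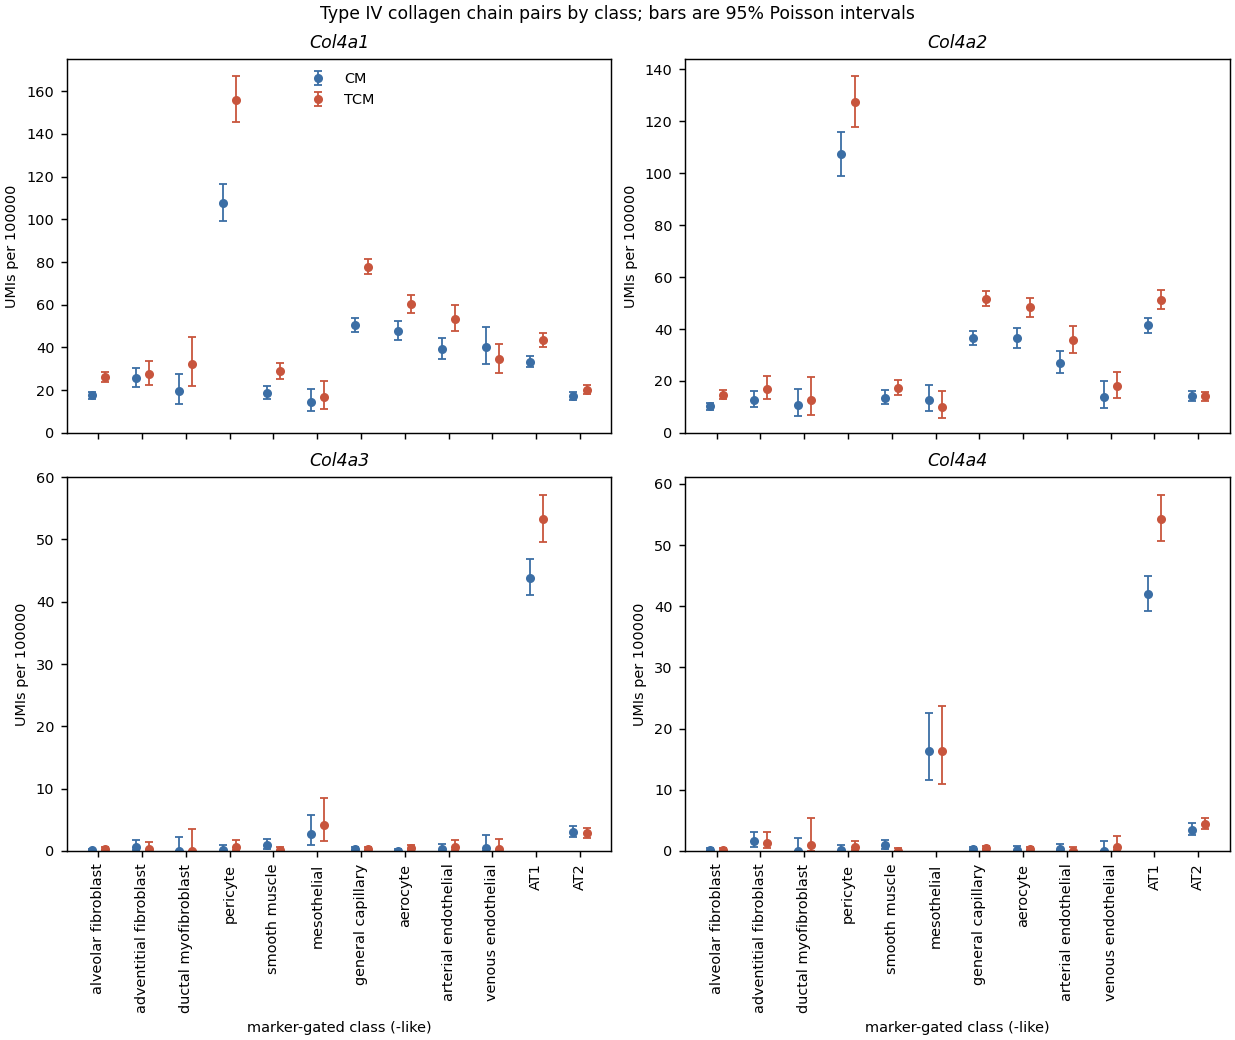
Levels of Col4a1, Col4a2, Col4a3 and Col4a4 (1 panel each) in UMIs per 100000 UMIs of the class, in the 12 classes compared, for the CM library (blue) and the TCM library (red), with points at the level and bars for exact Poisson 95% intervals. Col4a1 and Col4a2 are highest in pericyte-like cells and present in all 12 classes, whereas Col4a3 and Col4a4 stand out in AT1-like cells, with Col4a4 also at 16.4 in mesothelial-like cells.

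The alveolar pair was also higher in AT1-like cells of TCM, by less than 1.5-fold. Col4a3 was at 43.9 and 53.3 CP100k (0.28, 0.14 to 0.42), Col4a4 at 42 and 54.3 (0.37, 0.23 to 0.51) and Col4a5 at 9.83 and 12.3 (0.32, 0.02 to 0.62). Col4a5 passed 1.5-fold in alveolar fibroblast-like cells, 3.55 and 5.68 (0.68, 0.26 to 1.10), but without the 10 cells richest in it the ratio was 0.57. The other 2 basement membrane collagens carry an endostatin-type domain at their C-terminal end. Col18a1 belonged to smooth muscle-like cells, which held 42.7% and 56.1% of its gated UMIs, at 19.6 and 32.5 CP100k (0.73, 0.44 to 1.03). Col15a1 was highest in adventitial fibroblast-like cells, 14.2 and 13.6, and stood at 8.37 and 11.8 (0.49, 0.03 to 0.96) in smooth muscle-like cells.

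Type VI collagen, a beaded filament that lies between basement membrane and fibrils, was highest in fibroblast-like cells. Its chains Col6a1 and Col6a2 were highest in adventitial fibroblast-like cells, 57.4 and 57.8 CP100k and 58.5 and 73.5 in CM and TCM. Mesothelial-like cells ranked next for both chains, 33.6 and 46.3 for Col6a1 and 42.9 and 41.6 for Col6a2. In TCM the adventitial lead for Col6a1 was not clear of them. Col6a3 was at 26.4 and 24.1 in adventitial fibroblast-like cells, and at 19 and 26.4 in alveolar fibroblast-like cells (0.47, 0.29 to 0.66). Its largest ratio was in smooth muscle-like cells, 6.83 and 13 (0.93, 0.45 to 1.43), with thinned shares of 8.33% and 12.6% whose intervals overlapped. Col6a1 was higher in AT2-like cells, the surfactant-secreting epithelium, 6.97 and 10.5 (0.59, 0.25 to 0.93), and reversed to -0.21 when cells were thinned to equal depth, where 8.99% and 8.75% of them had a UMI.

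The 3 other collagens each peaked in a different class. Col13a1, a transmembrane collagen, was mostly in alveolar fibroblast-like cells, which held 86.3% and 84.7% of its gated UMIs, at 46.2 and 44.7 CP100k. Col14a1, which binds the surface of fibrils, was spread more widely. Adventitial fibroblast-like cells held 54.3% and 47.3% of its gated UMIs, at 56 and 50.2 CP100k, with 32.2 and 31.1 in ductal myofibroblast-like cells. Interstitial macrophage-like cells held 57 Col14a1 UMIs in CM and 55 in TCM, a level of 11 and 10.4. Col8a1, a short-chain collagen of vessel walls, was a pericyte gene, 14 and 9.86 (-0.50, -1.04 to 0.02). None of the 3 differed by 1.5-fold in these classes.

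**Figure D3:**
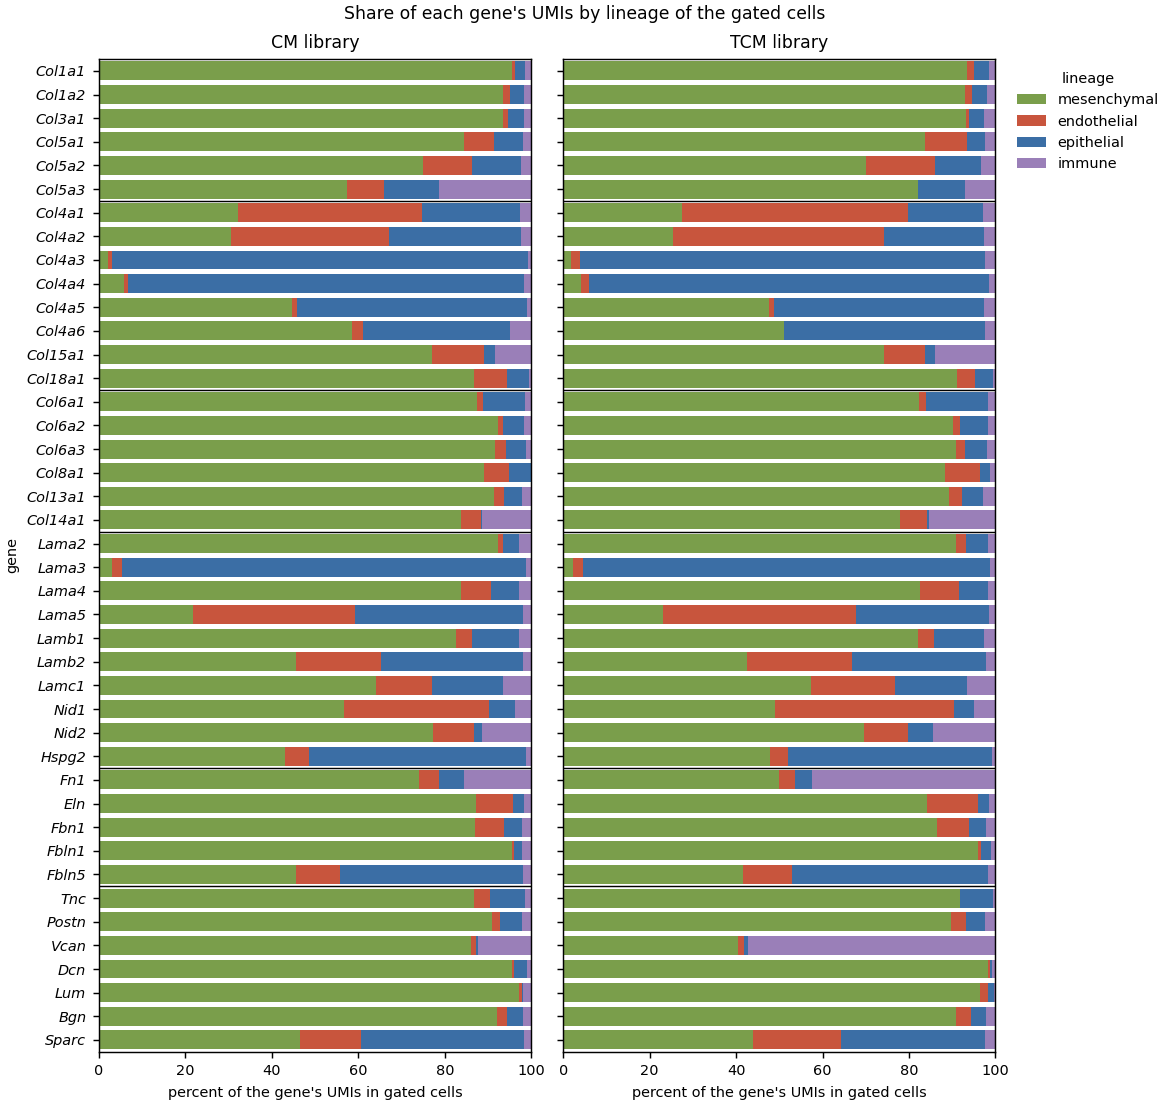
Share of the gated UMIs of each gene held by mesenchymal, endothelial, epithelial and immune classes in CM and TCM, as stacked horizontal bars in percent with a panel per library. The bars of type I and III collagen are almost wholly mesenchymal and those of Col4a3, Col4a4 and Lama3 almost wholly epithelial, and the immune part of Fn1 goes from 15.4% to 42.5% and that of Vcan from 12.3% to 57.3%. A share depends on the number and depth of the cells in each class as well as on their levels.

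Laminins are cross-shaped trimers of an alpha, a beta and a gamma chain, and their alpha chains differed in the class where they were highest. Lama2 was highest in adventitial fibroblast-like cells, 17.4 and 26 CP100k (0.58, 0.15 to 1.01). Alveolar fibroblast-like cells held the most of its gated UMIs, 40.8% and 34.2%. Lama3, the alpha chain of epithelial anchoring laminin, was an AT1 gene, with 83.1% and 82.1% of its gated UMIs there. It stood at 25 in CM and 36.8 in TCM (0.56, 0.38 to 0.74), just under 1.5-fold, with thinned shares of 25.2% and 29.1%, intervals 20.8% to 30.1% and 23.1% to 35.7%. Lama4, the alpha chain of vessels, was highest in the 28 and 25 lymphatic endothelial-like cells (21.7 and 29.1) and next in pericyte-like cells of CM (19.6). That lead was not clear of the class ranked next in either library. Of the gated Lama4 UMIs, 83.6% in CM and 82.6% in TCM were mesenchymal, and 7.11% and 9.08% endothelial. Lama5 was low and spread over lineages, 21.8% mesenchymal, 37.4% endothelial and 38.9% epithelial in CM, with its peak in ciliated-like cells (6.68) in CM and mesothelial-like cells (9.38) in TCM.

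The beta and gamma chains peaked in mural or fibroblast-like cells. Lamb1 peaked in pericyte-like cells, 27.6 and 28.2 CP100k, and was higher in alveolar fibroblast-like cells of TCM, 15.8 and 20.6 (0.39, 0.19 to 0.59). Lamb2 peaked in smooth muscle-like cells, 20.1 and 26.8 (0.42, 0.12 to 0.72), and in pericyte-like cells was at 9.72 and 14.5 (0.58, 0.06 to 1.10). It was spread over lineages, with 45.6% and 42.5% of its gated UMIs in mesenchymal and 32.7% and 31.1% in epithelial cells. Lamc1, the gamma chain shared by most laminins, was at 19.8 and 18.2 in pericyte-like cells and 16.9 and 21.2 in adventitial fibroblast-like cells. The nidogens, which tie laminin to type IV collagen, were both highest in pericyte-like cells, Nid1 at 39.4 and 41.2 and Nid2 at 4.94 and 7.93 on 29 and 41 UMIs.

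Perlecan, the heparan sulfate proteoglycan of basement membranes and the product of Hspg2, had a ratio above 0 in each of the 6 classes where it was measured. In smooth muscle-like cells the CM level was 22 CP100k (18.9 to 25.6) and the TCM level 35.4 (31.6 to 39.6), with a log2 ratio of 0.69 (0.41 to 0.96), and its thinned share 17.3% and 32.2%. In AT1-like cells it was at 20.6 and 29.5 (0.51, 0.32 to 0.71), with thinned shares of 17% and 33.8%. A Hspg2 UMI was found in 0.536% of T-like cells of CM and 0.181% of TCM unthinned, and in 0.361% and 0% thinned. In all, 36 of the 40 gene and class pairs measured for laminins, nidogens and perlecan had a ratio above 0, and 1 of them, Hspg2 in smooth muscle-like cells, passed 1.5-fold. Over all features 50.2% of pairs were above 0 and 2.65% were at least 1.5-fold higher. The interval lay clear above 0 in 4 classes for Hspg2, 3 for Lamb2 and 1 each for Lama2, Lama3 and Lamb1. It did so in none for Lama4, Lama5, Lamc1 and Nid1.

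Fibronectin, the adhesive glycoprotein on which other matrix is laid down, differed more between the libraries in monocyte-like cells than in any of the 7 structural classes where it reached 100 UMIs. In alveolar fibroblast-like cells Fn1 was at 80.1 CP100k in CM and 107 in TCM (0.42, 0.33 to 0.51), with thinned shares of 49.3% and 57.9%. In monocyte-like cells it was at 61.8 (55.1 to 69, 313 UMIs) and 163 (156 to 170, 1886 UMIs), a log2 ratio of 1.40 (1.22 to 1.58). The thinned share of monocyte-like cells with a Fn1 UMI was 24.8% in CM and 60.8% in TCM, against 34.5% and 79.3% unthinned, and in T-like cells it was 0.181% and 0.475% thinned and 0.938% and 0.362% unthinned. The immune share of the gated Fn1 UMIs was 15.4% in CM and 42.5% in TCM, and monocyte-like cells took the place of alveolar fibroblast-like cells as the class with the highest level. Part of such a share is the number and depth of the cells. Monocyte-like cells held 506441 UMIs of all genes in CM and 1157706 in TCM, and alveolar fibroblast-like cells 2450311 and 2041685. In mesothelial-like cells Fn1 had 88 UMIs in CM, all in 3 cells, and 10 in TCM, in 9 cells, too few to be compared under the 100-UMI rule. The same rule left out structural classes with a ratio above the monocyte-like one. In aerocyte-like cells it was 1.89 (1.05 to 2.82) on 14 and 77 UMIs. In venous endothelial-like cells it was 2.31 (0.78 to 4.29) on 4 and 26 UMIs.

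Versican, a large hyaluronan-binding proteoglycan encoded by Vcan, had the same pattern. It was at 12.5 and 10.1 CP100k in smooth muscle-like cells. In monocyte-like cells it was at 3.75 on 19 UMIs in CM, all of them in 10 cells or fewer, and at 15.5 on 180 UMIs in TCM (2.05, 1.37 to 2.82). No Vcan UMI was found in T-like cells of either library. The immune share of its gated UMIs was 12.3% and 57.3%, and part of that share is likewise the number and depth of the cells.

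The monocyte-like class itself held a different mix in the 2 libraries, and its cells were shallower in CM (median 2762 UMIs) than in TCM (4839). In this class 217 of the 2363 features tested were at least 1.5-fold higher in TCM and 178 at least 1.5-fold lower. Of its 11 markers, 5 were higher in TCM and 6 lower. Ccr2 was at 34.4 and 89.8 CP100k (1.39) and F13a1 at 49.8 and 131 (1.40), both genes of classical monocytes, while Ly6c2 was at 90.6 and 109 (0.26). Treml4 was at 20.3 and 6.05 (-1.75) and Ace at 32.2 and 12.3 (-1.39), both genes of patrolling monocytes. The part of this mix in the Fn1 and Vcan values was not tested.

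**Figure D4:**
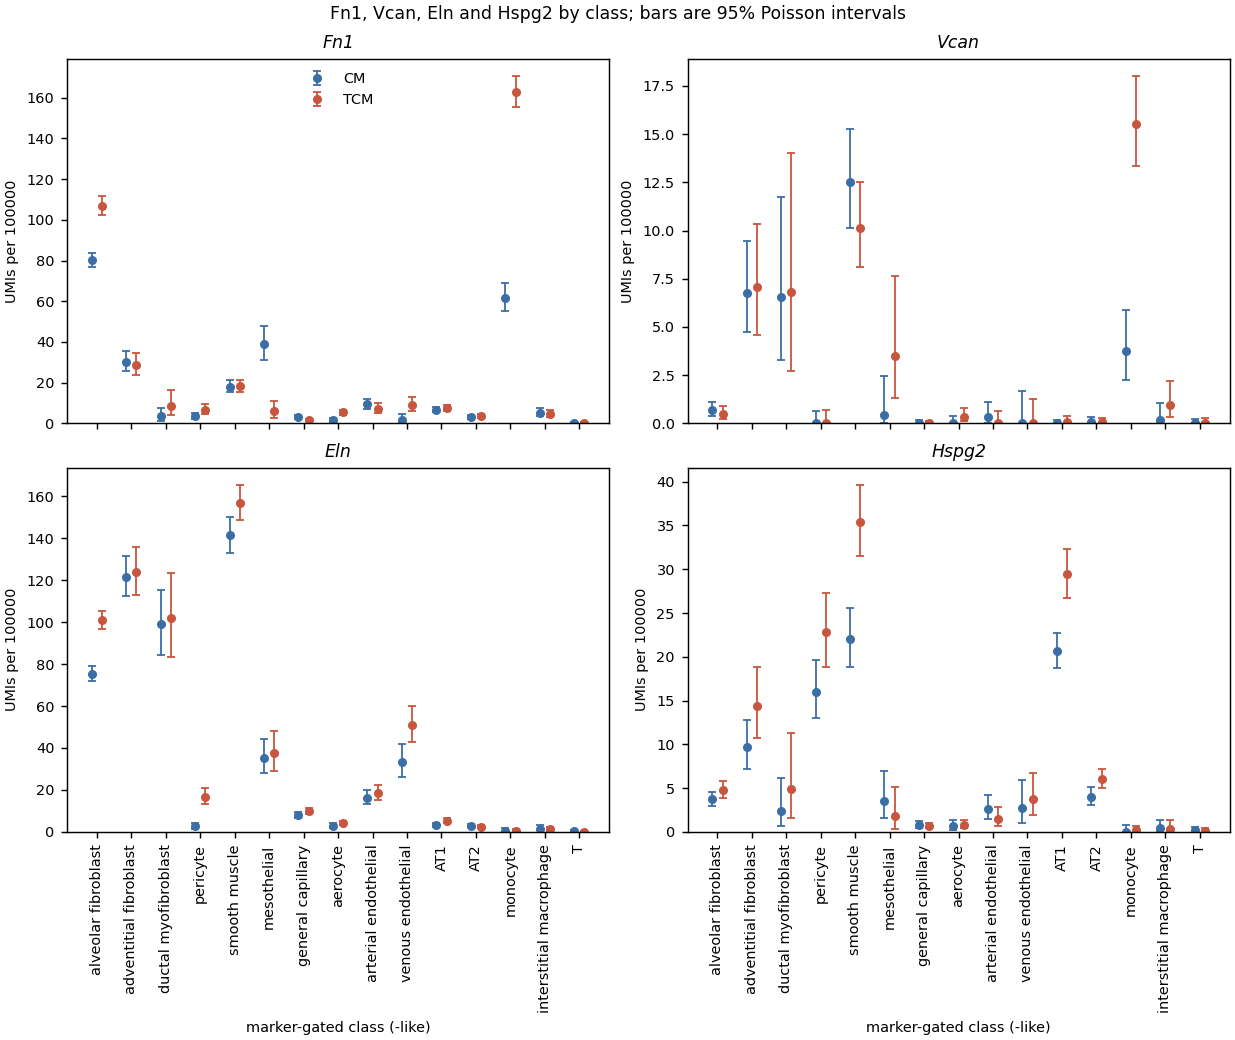
Levels of Fn1, Vcan, Eln and Hspg2 (1 panel each) in UMIs per 100000 UMIs of the class, by class, for the CM library (blue) and the TCM library (red), with points at the level and bars for exact Poisson 95% intervals. Fn1 in monocyte-like cells is at 61.8 in CM and 163 in TCM, and Hspg2 in smooth muscle-like cells at 22 and 35.4.

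Elastin, the recoil protein of the lung, had a ratio above 0 in each of the 10 classes where it was measured, with an interval clear of 0 in 6 of them. The ratio was small in the classes where its level was highest. Eln was at 141 and 157 CP100k in smooth muscle-like cells (0.15, 0.03 to 0.27). It was at 122 and 124 in adventitial fibroblast-like cells (0.03, -0.15 to 0.20) and at 98.9 and 102 in ductal myofibroblast-like cells (0.05, -0.32 to 0.41). In alveolar fibroblast-like cells, which held 42.1% of its gated UMIs in each library, it was at 75.5 and 101 (0.42, 0.33 to 0.51). It passed 1.5-fold in venous endothelial-like cells, 33.4 and 50.9 (0.61, 0.20 to 1.03).

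The largest elastin ratio rested on few UMIs. In pericyte-like cells Eln was at 2.73 CP100k on 16 UMIs in CM and 16.8 on 87 UMIs in TCM (2.62, 1.84 to 3.49), where 10 cells held 87.5% and 80.5% of those UMIs. Without them the ratio was 3.30 on 2 and 17 UMIs. An Eln UMI was found in 4.92% and 12.9% of cells (2.62% and 8.43% thinned, against 0.542% and 0.238% of thinned T-like cells). Of the 12 smooth muscle markers 11 were higher in pericyte-like cells of TCM, summed 187 and 273 CP100k, with Nrip2 at 0 in both, and the 12 immune markers were all higher, summed 28.3 and 63.6. Their part in the result was not tested. In AT1-like cells Eln was at 3.13 and 5.21 (0.74, 0.24 to 1.24), and without the 10 richest cells at a log2 ratio of 0.19.

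Fibrillin and the fibulins, which assemble elastic fibres, passed 1.5-fold in none of the classes where they reached 100 UMIs. Fibrillin-1 (Fbn1), the microfibril scaffold, was highest in adventitial fibroblast-like cells, 37.4 and 50.4 CP100k (0.43, 0.13 to 0.73). Alveolar fibroblast-like cells held the most of its gated UMIs, 45.6% and 47.6%. Fbln1 was also highest in adventitial fibroblast-like cells, 140 and 131, and was at 60.8 and 41.8 in ductal myofibroblast-like cells (-0.54, -1.09 to -0.01). Fbln5, which is needed for elastic fibres to form, was highest in AT1-like cells, 34.7 and 44.6 (0.36, 0.21 to 0.52), and was at 14.1 and 9.59 in arterial endothelial-like cells (-0.55, -1.07 to -0.05).

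Matricellular proteins and small proteoglycans, which tune the matrix rather than bear load, ranged from Postn, mostly in 1 class, to Sparc, spread over 3 lineages. Periostin (Postn) was a pericyte gene, 396 and 398 CP100k (0.01, -0.08 to 0.09), with 81.3% and 76.9% of its gated UMIs there. In smooth muscle-like cells it was at 20.6 and 34.6 (0.75, 0.47 to 1.03). The 12 pericyte markers summed 165 and 148 there, 4 of the 12 were higher in TCM, and their part in the Postn value was not tested. In AT1-like cells Postn was lower, 6.35 and 4.54 (-0.49, -0.93 to -0.05). Tenascin-C (Tnc), an anti-adhesive glycoprotein, was low, at most 5.96 in ductal myofibroblast-like cells of CM and 5.36 in smooth muscle-like cells of TCM. Sparc, a collagen-binding protein, was highest in pericyte-like cells, 712 and 686, with AT1-like cells next at 605 and 655, and the AT1-like class held the most of its gated UMIs, 34.4% and 29.3%. Its UMIs in CM were 46.4% mesenchymal, 37.8% epithelial and 14.2% endothelial.

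Decorin (Dcn), lumican (Lum) and biglycan (Bgn) are leucine-rich proteoglycans that coat collagen fibrils, and each was highest in a different class. Dcn was adventitial, 599 and 623 CP100k, with 77.7% and 77.8% of its gated UMIs. It was lower in ductal myofibroblast-like cells of TCM, 108 and 38.9 (-1.47, -2.0 to -0.97), where 10 cells held 94.5% and 92.5% of the UMIs, and the ratio without them was -0.89. Lum was highest in those same ductal myofibroblast-like cells, 64.4 and 71, and was at 25.8 and 37.4 in adventitial fibroblast-like cells (0.54, 0.18 to 0.89), which held more of its gated UMIs, 48.9% and 61.6%. Bgn was highest in alveolar fibroblast-like cells, 419 and 438, with adventitial fibroblast-like cells close behind at 401 and 377.

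Biglycan in the endothelium went in opposite directions in 2 classes, with fibroblast markers beside it. In aerocyte-like cells, the large capillary cells of gas exchange, Bgn was at 6.35 and 11.8 CP100k (0.90, 0.47 to 1.34), and 7 of the 8 mesenchymal markers were higher in TCM, summed 28.1 and 46.4. In arterial endothelial-like cells it was at 21.1 and 10.7 (-0.99, -1.45 to -0.54), and 0 of the 8 mesenchymal markers were higher, summed 29.3 and 14.9. After thinning, a Bgn UMI was found in 2.97% and 6.53% of aerocyte-like cells and 10.4% and 8.39% of arterial endothelial-like cells, with overlapping intervals in each class. The thinned T-like shares were 2.53% and 2.85% (6.57% and 5.24% unthinned), so the aerocyte-like share in CM was close to background. The part of these markers in the Bgn values was not tested.

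Read by class, most ratios of the matrix genes lay above 0 and few passed 1.5-fold. Over the 12 classes compared, 182 gene and class pairs reached 100 UMIs, for 39 of the 42 genes. Of these pairs, 129 (70.9%) had a log2 ratio above 0, against 50.2% of the 35139 pairs of all features. Of the 182, 13 (7.14%) were at least 1.5-fold higher in TCM and 4 (2.20%) at least 1.5-fold lower, against 2.65% and 2.36% of all features, so the share that was lower is near the background. Col4a6, Col5a3 and Nid2 did not reach 100 UMIs in a class. The basement membrane collagens had 25 of 30 pairs above 0, the laminins, nidogens and perlecan 36 of 40, the fibrillar collagens 20 of 29, and the matricellular proteins and proteoglycans 18 of 34. A ratio above 0 was counted whether or not its interval held 0, and pairs of 1 class share their cells and are not independent.

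**Figure D5:**
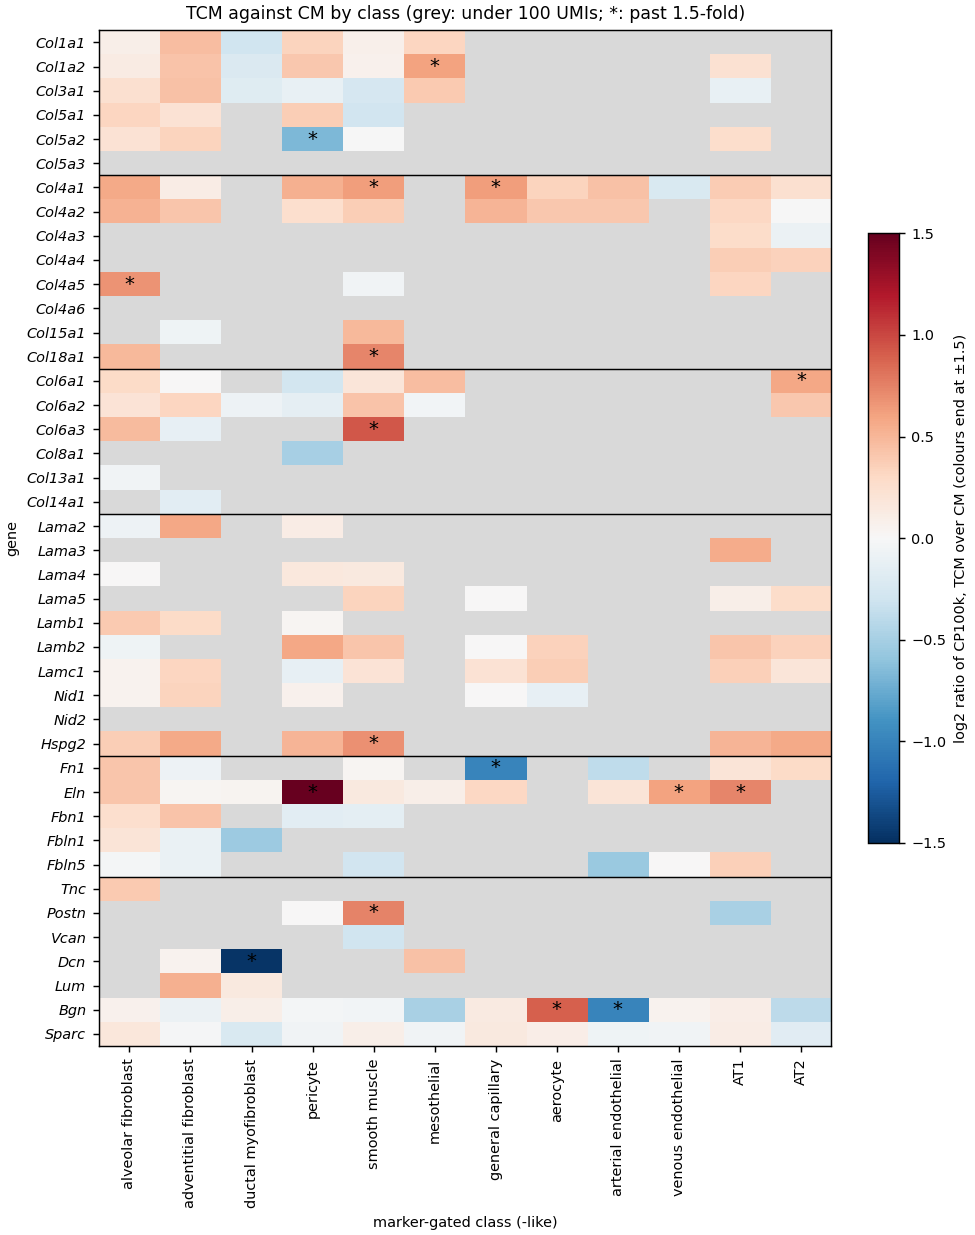
Heat map of the log2 ratio of TCM to CM for each gene (vertical axis) in each of the 12 classes (horizontal axis), with red for higher and blue for lower in TCM, colours that end at 1.5 in either direction, grey for under 100 UMIs and an asterisk past 1.5-fold. Of 182 coloured pairs 129 lie above 0, and the asterisks mark 13 higher and 4 lower, 5 of the 13 in the smooth muscle-like column.

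Smooth muscle-like cells had the most genes past 1.5-fold. Of the 26 genes measured there, 5 were higher and 0 lower, against 3.46% and 1.55% of all 2518 features tested in the class. The 5 were Col6a3, Postn, Col18a1, Hspg2 and Col4a1, of which Col18a1, Hspg2 and Col4a1 encode basement membrane proteins. The median over the 26 was 0.15 and over all features 0.00. The class's own markers summed 6508 and 6695 CP100k, and its cells were shallower in CM (median 3144 UMIs) than in TCM (5035). Other signals moved there too. Endothelial markers were higher in 10 of 12, summed 49.2 and 73.5, and immune markers in 12 of 12, summed 13.8 and 44.6. The heat shock genes of dissociation stress were lower, Hspa1a by a log2 ratio of -1.51, Hspa1b of -1.68 and Dnajb1 of -0.87. Their part in the 5 results was not tested.

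In both fibroblast-like classes most ratios were above 0 and small. In alveolar fibroblast-like cells 24 of 28 measured genes were above 0 with a median of 0.23, against -0.01 over all 5615 features, and 1, Col4a5, was at least 1.5-fold higher and 0 lower, where 1.73% of all features were higher and 1.94% lower. In adventitial fibroblast-like cells 18 of 26 were above 0 with a median of 0.26, against 0.02 over 1360 features, and 0 passed 1.5-fold in either direction, where 2.79% of features were higher and 3.24% lower. Ductal myofibroblast-like cells had 10 genes measured, 3 above 0 with a median of -0.19, 0 higher and 1, Dcn, lower, where 4.1% of 390 features were higher and 4.1% lower.

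Pericyte-like cells had 22 genes measured with a median of 0.05, 1 higher (Eln) and 1 lower (Col5a2), against 2.18% and 2.79% of 2154 features. Mesothelial-like cells had 9 measured, 1 higher (Col1a2) and 0 lower, against 6.29% and 9.43% of 636 features. These cells were deeper in CM (median 1503 UMIs) than in TCM (610.5). With at least 1000 UMIs a cell, or thinned to that depth, the class had too few cells to be compared. In that class the endothelial markers summed 167 CP100k in CM and 35.2 in TCM, and the 8 stress genes measured were all lower, with a median of -1.61. The part of depth, of these markers or of the stress genes in the Col1a2 value was not tested.

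Each endothelial class had 1 or 2 genes past 1.5-fold. General capillary-like cells had 10 genes measured, 9 above 0, with Col4a1 higher and Fn1 lower, against 2.57% and 1.39% of 6061 features. Fn1 there was at 3.06 and 1.55 CP100k (-0.98, -1.60 to -0.39), 10 cells held 79% and 60% of its UMIs, and the ratio without them was -0.09. Thinned shares were 0.973% and 0.814%, against 0.181% and 0.475% in T-like cells with overlapping intervals. Aerocyte-like cells had 7 measured, 6 above 0, with Bgn higher and 0 lower, against 2.11% and 2.21% of 3989 features. Of the 12 stress genes 6 were lower there, with a median of -0.62, and their part was not tested. Arterial endothelial-like cells had 7, with 0 higher and Bgn lower, against 3.53% and 1.52% of 2238. Venous endothelial-like cells had 5, with Eln higher and 0 lower, against 5.94% and 2.4% of 876.

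In the epithelium AT1-like cells had 19 genes measured and 17 above 0. Their median was 0.31, against 0.03 over 5104 features, and 1 gene, Eln, was at least 1.5-fold higher and 0 lower, where 1.7% of all features were higher and 2.49% lower. The mesenchymal markers summed 76.7 and 75.8 CP100k in this class, with 3 of 8 higher in TCM, and 5 of the 11 stress genes measured were lower, with a median of -0.45, whose part was not tested. AT2-like cells had 13 measured and 9 above 0, with Col6a1 higher and 0 lower, against 3.53% and 3.55% of 4198 features.

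Genes that process, assemble and bind matrix were counted the same way, from 4 lists of 25, 12, 26 and 23 genes. Over the 12 classes 328 pairs were measured, 17 (5.18%) at least 1.5-fold higher and 21 (6.40%) lower, against the same 2.65% and 2.36% of all features. Lysyl oxidase crosslinks collagen and elastin, and in alveolar fibroblast-like cells Lox was at 18.3 CP100k on 448 UMIs in CM and 36.0 on 734 UMIs in TCM (0.98, 0.80 to 1.15), the 1 gene of 17 measured of the collagen processing and crosslinking list that passed 1.5-fold in that class. Adamts2, which trims procollagen, was higher in adventitial fibroblast-like cells (0.63), and the prolyl hydroxylases P4ha2 (0.60) and P3h2 (0.80) were higher in AT1-like cells. Pcolce2, an enhancer of procollagen cleavage, was lower in smooth muscle-like (-0.71) and ductal myofibroblast-like cells (-0.72).

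Of the elastic fibre assembly list, Efemp1 (0.72) was higher in adventitial fibroblast-like cells, Ltbp1 (0.77) in smooth muscle-like, Ltbp4 (1.31) in mesothelial-like and Mfap2 (0.73) in venous endothelial-like cells. Mfap4, a microfibril-associated protein, was higher in pericyte-like cells (1.01) and aerocyte-like cells (1.06) and lower in ductal myofibroblast-like (-0.80) and arterial endothelial-like cells (-1.45). Mfap4 is the leading gene of the alveolar fibroblast-like class, and in aerocyte-like and arterial endothelial-like cells it went the same way as the summed mesenchymal markers given beside Bgn, whose part was not tested.

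The list of other glycoproteins differed between the capillary classes. In general capillary-like cells 0 of 5 measured genes were higher and 4 lower, with a median of -0.86, whereas in aerocyte-like cells 2 of 4 were higher and 1 lower, with a median of 0.33. Ogn was at -1.46 and 1.33 and Npnt at -0.86 and 0.75 in the 2 classes, and the difference between them was not tested. Both are among the leading genes of the alveolar fibroblast-like class and were low in these capillary classes. Ogn was at 4.24 and 1.55 CP100k in general capillary-like cells of CM and TCM, and at 2.40 and 6.02 in aerocyte-like cells. The part of fibroblast signal in these values was not tested. Ccn1, an integrin-binding protein that cells make within minutes of stimulation, was lower in 6 classes, at -1.13 in pericyte-like, -0.67 in smooth muscle-like, -1.61 in mesothelial-like, -0.86 in general capillary-like, -1.26 in aerocyte-like and -1.11 in arterial endothelial-like cells. The stress genes had a median of 0.43 in pericyte-like, -0.27 in smooth muscle-like, -1.61 in mesothelial-like, -0.04 in general capillary-like, -0.62 in aerocyte-like and -0.22 in arterial endothelial-like cells, and their part in the Ccn1 values was not tested. Osteopontin (Spp1) was lower in pericyte-like cells, 22.5 and 4.45 CP100k (-2.34). Among matrix receptors, Itga5, the alpha chain of the fibronectin receptor, was higher in smooth muscle-like cells, 10.2 and 19.0 (0.90), Itga9 was higher in AT2-like cells (0.88), and Itga6, a laminin receptor chain, was lower in AT1-like cells (-1.01).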

How the data were processed

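Single-cell RNA sequencing was done by the study on dissociated lungs, 1 CM and 1 TCM library. The values used are raw UMI counts per gene and droplet that the authors deposited, made with Cell Ranger 4 according to the file headers on the mm10 (GRCm38.p6) mouse genome named in the submitters' notes, which also name Seurat. No column of per-sample values was left out of use.

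The 42 genes, their role groups, the other gene lists and the marker lists were chosen with earlier results of these data known. Positions came from the GENCODE annotation of the same build, and promoters from RefSeq. Each cell was scored for each marker list after scaling to 2000 UMIs. A class needed a score of at least 0.3, at least 2 markers and a lead of 0.15 over the next class. Cells with another lineage above 0.5 of the top one were set aside as mixed, 1327 in CM and 1032 in TCM, as were 205 and 200 cells between 2 classes and 506 and 294 that passed no gate. These thresholds were set after the marker patterns were seen. Of the gated cells, 160 in CM (2.69%) and 142 in TCM (2.30%) lay within 0.1 of the limit, so a class is a range of scores, not a sharp type. Scrublet with its own threshold marked 0 cells in CM and 1 in TCM, so it did not work here and doublets were not removed beyond the mixed cells. The libraries shared 93 barcodes among their cells, where 83.5 are expected from the size of the barcode pool alone.

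UMIs were summed by class and library. Levels carry exact Poisson intervals, shares of cells Clopper-Pearson intervals and ratios conditional binomial intervals, all at 95% and all for counting error only. No test was made, since each group is 1 library. The text gives for every gene the class with the highest level. It gives the genes past 1.5-fold with at least 100 UMIs in each of the 12 classes compared. It also gives up to 3 genes a direction of each other list. The counting steps were tested on simulated data. Python 3.11.15, numpy 2.4.6, scipy 1.17.1 and scanpy 1.11.5 were used. Alternatives were Leiden clusters in place of gates, 1 more marker, at most 5% mitochondrial UMIs, at least 1000 UMIs, thinning to 1000 UMIs, a mean over cells, free RNA subtracted, the top 6% of doublet scores left out, centring, at least 30 UMIs and a fold of 2.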

Additional observations from a re-analysis of the deposited data

How the results depend on the processing

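No paired analysis was possible because each group is 1 library, and for the same reason no library could be left out in turn. The share of gene and class pairs above 0 was 68.6% to 86.9% under the alternatives (70.9% as reported), over differing sets of 61 to 270 pairs. The number past 1.5-fold was 13 higher and 4 lower as reported, and 17 and 21 for the 4 other lists. Thinning to 1000 UMIs gave 7 and 1, and 6 and 3 for the other lists, with 61 and 101 pairs left to count. A mean over cells gave 39 and 10, and 29 and 40. At least 30 UMIs gave 28 and 11, and 52 and 45, over 270 and 521 pairs. A fold of 2 gave 1 and 1, and 4 and 9. Cells with at least 1000 UMIs gave 2 lower, and Leiden clusters 11 lower in the other lists. Of the 17 pairs past 1.5-fold, 7 were kept with clusters (no cluster was named ductal myofibroblast-like or arterial endothelial-like), 12 without the top 6% of doublet scores, 15 with free RNA subtracted and 1 after thinning. Fn1 in general capillary-like cells reversed with clusters (1.02) and thinning (0.0066), Eln in AT1-like cells with clusters (-0.12) and Col6a1 in AT2-like cells with thinning (-0.21). The causes were not tested beyond the fewer pairs that thinning leaves. The ranges of the main ratios were 1.29 to 2.37 for Fn1 and 1.89 to 3.88 for Vcan in monocyte-like cells, 0.53 to 0.67 for Col4a1 in general capillary-like cells, 0.64 to 1.15 for Hspg2 and 0.74 to 1.01 for Postn in smooth muscle-like cells, and 2.10 to 3.30 for Eln in pericyte-like cells. Without the 10 richest cells Vcan in monocyte-like cells had 0 UMIs in CM and 107 in TCM. Its value of 3.86 in that setting is therefore a bound, with 3 counts in place of 0. The leading class was kept for 34 genes in CM and 37 in TCM with clusters.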
